A study of Drosophila melanogaster with 18 samples.

Results

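The comparison described here set wing imaginal discs of old larvae carrying mutant clones of warts (wts) against wing discs of younger control larvae. It used 12 of the 18 libraries of the series, which were 6 of its 9 replicates, and covered every gene of one table of read counts. The tested discs carried wts149 clones and were taken on day 9 (wts day 9 discs). The control discs carried clones of the parental FRT82B chromosome and were taken on day 5, with the column names of the table adding day 6 (control discs). In both groups a ubxflp recombinase made the clones in a Minute background, flies were raised at 25 degrees, and discs were dissected by hand from wandering larvae of the last instar. A further group of wts149 discs of day 5 entered the fit and is quoted for single genes. Each group had 3 replicates, and each replicate was the sum of an a and a b library. Clone size, the number of discs in a replicate and its number of animals were not given in the sources used here. Age and genotype changed together in this comparison, because no control of day 9 was analysed here, so that their effects cannot be told apart.

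Warts is the kinase at the end of the Hippo pathway. It phosphorylates the co-activator Yorkie and keeps it out of the nucleus, and in its absence Yorkie drives cell proliferation and blocks cell death, so that mutant discs overgrow. Larvae with overgrown discs delay pupariation and stay in the wandering stage for days beyond their siblings. The clones of the Minute background have a growth advantage, since Minute cells are short of a ribosomal protein and grow slowly. A library from a whole disc holds the clones, any Minute cells that remain, and the myoblasts, trachea and blood cells attached to the epithelium.

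Libraries a and b of the same number differed by close to sampling noise, with chi-square values of 0.994 to 1.06 per degree of freedom, against 11.1 to 58.9 between replicates of a group, and were counted as 1 sample. The replicates held 19297558 to 20899989 counts in wts day 9 discs, 14201662 to 19762758 in wts day 5 discs and 18063124 to 22263073 in control discs. Of 17373 genes in the table, 8585 passed the filter on low counts and were tested. A gene could pass it through its counts in 1 group alone. Nothing in the sources used here says that the replicates were separate cultures, so that p-values measure the spread between these samples. The mutated gene was measured at 274, 256 and 277 CPM (counts scaled to library size) in wts day 9 discs, against 99.8, 106 and 95.6 CPM in control discs (log2 1.42 ± 0.07, adjusted p = 4.32e-06). What the wts149 lesion does to the transcript was not given, so this value does not check the labels. Throughout, log2 values are fold changes of wts day 9 over control discs with their standard error, and a call means an adjusted p below 0.05 in edgeR's quasi-likelihood test with Benjamini-Hochberg adjustment.

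The control replicates were not alike. Genes of the salivary glue summed to 3.19, 245 and 5286 CPM in control replicates 1, 2 and 3, and Hsp68, a heat-inducible chaperone, stood at 2514, 612 and 6.24 CPM in them. Blimp-1, an early responder to the moulting hormone ecdysone, had 61.6, 6.26 and 44.3 CPM in wts day 9 discs and 110.3, 0.578 and 105 CPM in control discs, where replicate 2 was low. Hsp68 and Blimp-1 were chosen for this check after their values were seen. In wts day 9 discs replicate 1 stood apart for some genes, such as stg, the phosphatase that starts mitosis (2079, 564 and 695 CPM, against 230.2, 214 and 251 CPM in control discs). Epithelial wing markers were present in every replicate. The hinge and notum gene hth had 666, 832 and 805 CPM in wts day 9 discs, against 787, 708 and 763 CPM in control discs, and the pouch gene nub had 331, 366 and 364 CPM in wts day 9 discs, against 299, 266 and 301 CPM in control discs.

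Of the 8585 genes, 1312 (15.3%) were higher and 1231 (14.3%) were lower in wts day 9 discs, and 2543 (29.6%) were called in all. Most of these differences were small. The median size of a called difference was 0.46 on the log2 scale, 1542 called genes differed by less than 1.5-fold, and 296 were at least 2-fold higher and 334 at least 2-fold lower. Over all genes tested the median was -0.01. With scaling by library size alone the split became 1069 higher and 1580 lower. The number of lower genes fell to 590 when wts day 9 replicate 2 was left out, and to 691 when replicate 3 was. The values of the 3 replicates did not overlap between the groups for 3821 genes (44.5%). Many genes named below were picked as called members with a small p-value or a large fold change. Where such genes are said not to overlap between the groups, this describes their values and adds no support to their calls. Between wts day 9 and wts day 5 discs 716 genes (8.34%) were called. In these bulk samples fewer cells of a type and less RNA per cell cannot be told apart.

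**Figure D1:**
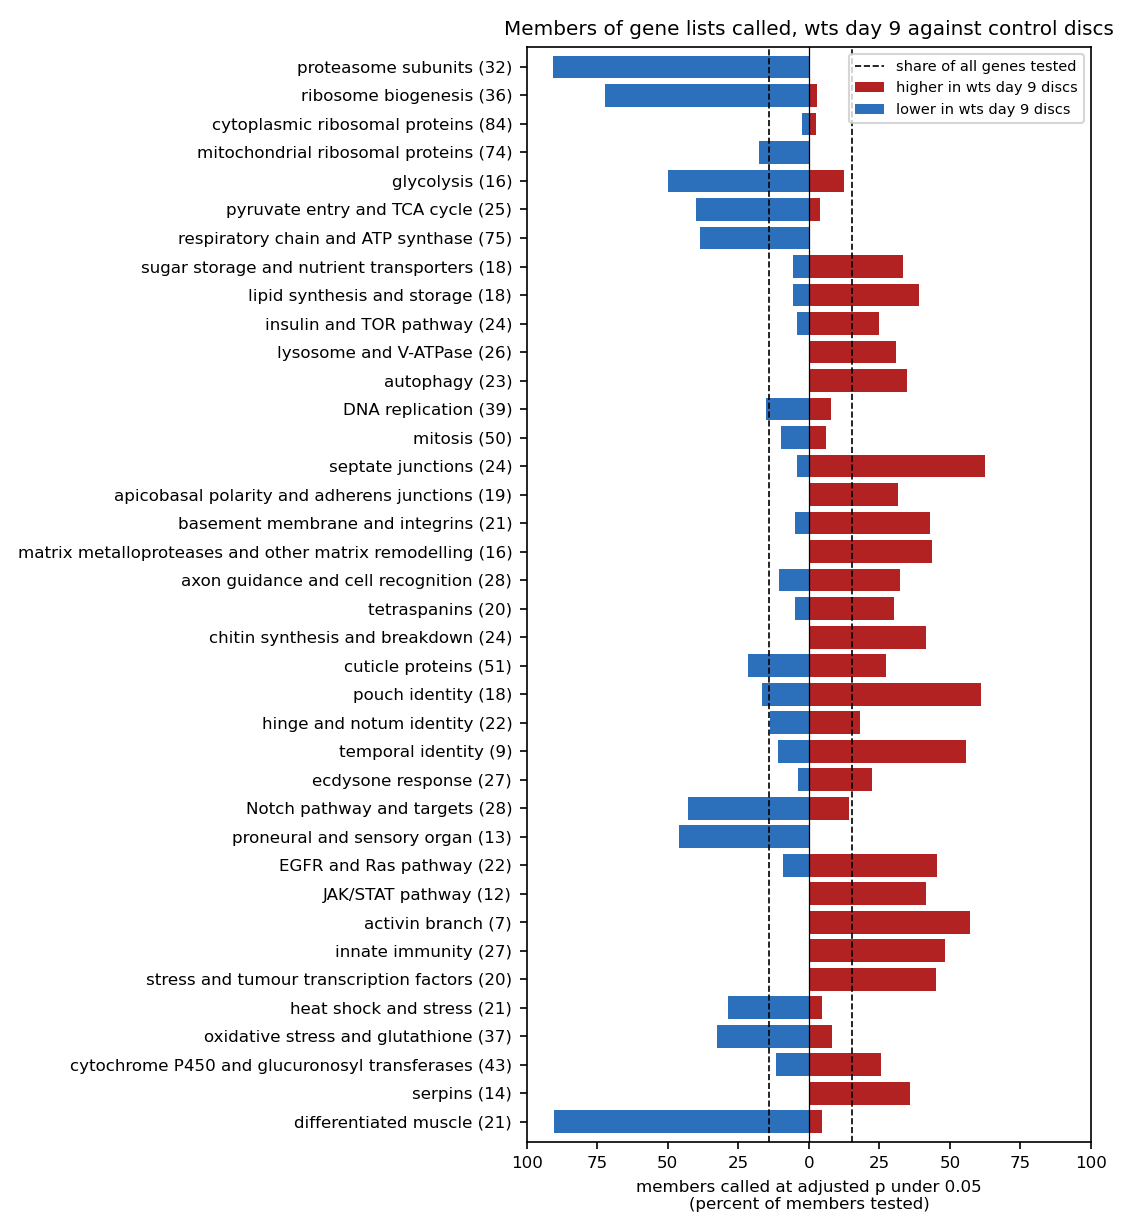
Share of the tested members of 38 gene lists that were called higher (red, to the right) or lower (blue, to the left) in wts day 9 than in control discs, in percent, with the number tested in brackets. Dashed lines mark the shares of all genes tested, 15.3% and 14.3%. Proteasome and muscle genes reach farthest to the left, septate junction and pouch genes farthest to the right.

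Gene length moved with the fold changes. Among 8497 genes with an exon length, the median log2 fold change was -0.11 in the shortest decile and 0.10 in the longest, and the share called higher was 6.92% in the shortest and 27.8% in the longest. The lists below differ in length, from a median of 786.5 exonic bases for mitochondrial ribosomal proteins to 7190 for neuron and glia markers and 12618 for temporal identity genes. The part of length in small differences was not tested gene by gene. An alternative fit, added after seeing the data, took a length trend as an offset. Its counts are given for the lists below where they differ by more than 1.5 times. Medians of several lists of long genes fell with this offset. They went from 0.22 to 0.14 for guidance and recognition genes and from 0.17 to 0.07 for EGFR and Ras genes. Ecdysone response genes went from 0.19 to 0.03, and insulin and TOR genes from 0.07 to -0.0046. The median of cytoplasmic ribosomal proteins, which are short, rose from 0.06 to 0.12.

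**Figure D2:**
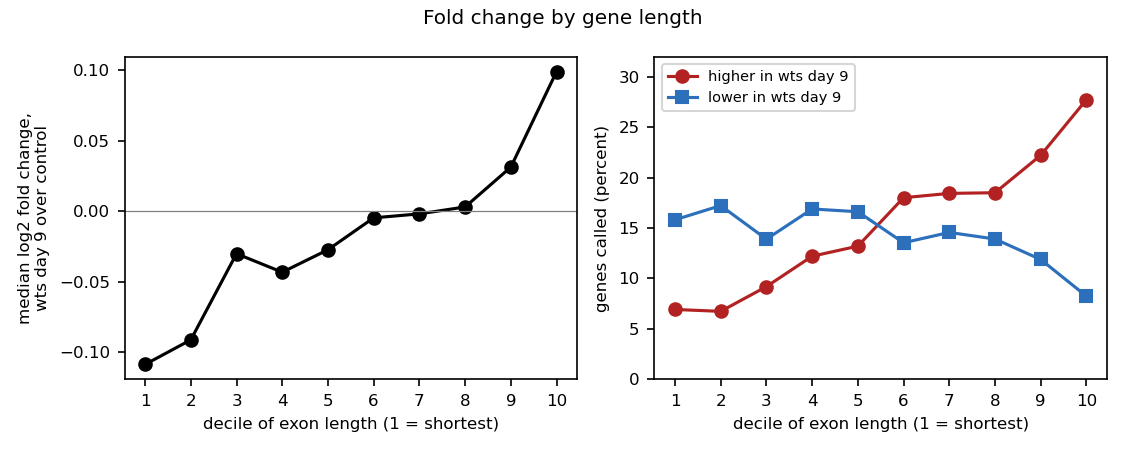
Median log2 fold change of wts day 9 over control discs (left) and percent of genes called (right) in 10 equal bins of exon length, from the shortest genes (1) to the longest (10). The median runs between -0.11 and 0.10, and the share called higher between 6.73% and 27.8%.

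Most proteasome subunit genes were lower in the old mutant disc. The proteasome is a barrel of proteases with a cap that unfolds tagged proteins. Of 48 listed subunit genes 32 were tested, and 29 of these (90.6%) were lower and 0 higher, beside 14.3% of all genes lower. The median was -0.40. Prosalpha5, of the outer ring of the barrel, had 110.4, 96.3 and 105 CPM in wts day 9 discs, against 157, 146 and 159.5 CPM in control discs (log2 -0.57 ± 0.07, adjusted p = 0.000502). Rpn12, of the cap, had 96.1, 79.3 and 90.3 CPM in wts day 9 discs, against 133, 123 and 149 CPM in control discs (log2 -0.61 ± 0.09, adjusted p = 0.00148). No replicate of one group reached the other for either gene. The barrel had 12 of 13 tested genes lower and the cap 17 of 19, a division made by name after the values were seen. Wts day 5 discs had 129, 147 and 135 CPM of Prosalpha5, and the difference between the mutant ages was called for this gene (log2 of day 9 over day 5 -0.40, adjusted p = 0.0127). Leaving out a replicate gave 23 to 31 lower members.

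Most genes for building ribosomes were lower, while most ribosomal protein genes stood near their control level. Ribosome biogenesis factors process and assemble ribosomal RNA in the nucleolus. Of 36 tested, 26 (72.2%) were lower and 1 was higher, with a median of -0.35. The lower ones included nop5, a box C/D particle protein, with 292, 261 and 277 CPM in wts day 9 discs, against 423, 487 and 361 CPM in control discs (log2 -0.61 ± 0.11, adjusted p = 0.00322). Surf6, a nucleolar protein, had 42.8, 45.5 and 46.9 CPM in wts day 9 discs, against 64.5, 65.9 and 58.2 CPM in control discs (log2 -0.48 ± 0.08, adjusted p = 0.00215). The exception was Non1, a nucleolar GTPase, with 939, 1119 and 1051 CPM in wts day 9 discs, against 576, 597 and 439.9 CPM in control discs (log2 0.95 ± 0.13, adjusted p = 0.000853). The count of lower members rested on several replicates. It was 17, 10 and 12 without wts day 9 replicate 1, 2 or 3, and 14 and 13 without control replicate 1 or 2. Of 84 cytoplasmic ribosomal protein genes 2 were higher and 2 lower, with a median of 0.06. With a replicate left out, 1 to 4 were higher and 0 to 2 lower. DESeq2 called 7 higher. The length offset gave 9 higher and 1 lower. Of 74 mitochondrial ribosomal protein genes 13 (17.6%) were lower and 0 higher, with a median of -0.17. That share of lower genes was near the 14.3% of all genes. The lower count was 5 without wts day 9 replicate 2 or 3 or control replicate 1, 22 with scaling by library size alone, and 8 with the length offset. Of 33 aminoacyl-tRNA synthetase genes 9 (27.3%) were lower and 0 higher. That count was 1 and 2 without wts day 9 replicates 2 and 3, 2 without control replicate 1 and 5 without wts day 5 replicate 3, and without control replicate 3, 1 gene was higher.

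Many glycolysis and respiration genes were lower. Glycolysis breaks glucose down to pyruvate, and 8 of its 16 tested genes (50%) were lower and 2 higher (12.5%), with a median of -0.30. Gapdh2, a glyceraldehyde phosphate dehydrogenase, had 504, 489 and 489 CPM in wts day 9 discs, against 769.9, 732 and 637 CPM in control discs (log2 -0.53 ± 0.08, adjusted p = 0.00103). Pglym78, phosphoglycerate mutase, had 48.2, 51.6 and 51.4 CPM in wts day 9 discs, against 83.9, 78.1 and 72.8 CPM in control discs (log2 -0.63 ± 0.07, adjusted p = 0.000251). Both were lower in every wts day 9 replicate than in any control replicate, as were Tpi (-0.65), Eno (-0.68) and Pgk (-0.39). Glut1, a glucose transporter (-0.23), Hex-A (0.07) and PyK (-0.05), the first and last steps, were not called. ImpL3, lactate dehydrogenase, went the other way in 2 replicates. It had 10.6, 60.8 and 81.3 CPM in wts day 9 discs, against 11.1, 18.3 and 15.8 CPM in control discs (log2 1.76, adjusted p = 0.0442), so that replicate 1 overlapped the controls, and its call ended without wts day 9 replicate 2 or 3, any wts day 5 replicate or any control replicate.

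In the respiratory chain, which pumps protons across the inner mitochondrial membrane to drive ATP synthase, 29 of 75 tested subunit genes (38.7%) were lower and 0 higher, with a median of -0.21. The lower count was 17 without wts day 9 replicate 2 and 18 without replicate 3. The parts of the chain were uneven. All 9 tested subunit genes of complex IV, cytochrome oxidase, were lower (log2 -0.57 to -0.37), as were 11 of 14 of ATP synthase, against 4 of 32 of complex I. These divisions were made by name after the values were seen. The gene levy, a subunit of complex IV, had 79.5, 72.1 and 77.5 CPM in wts day 9 discs, against 118, 113 and 109 CPM in control discs (log2 -0.57 ± 0.06, adjusted p = 0.000183). ATPsynG, of ATP synthase, had 94.7, 84.2 and 91.5 CPM in wts day 9 discs, against 127, 132 and 131 CPM in control discs (log2 -0.53 ± 0.07, adjusted p = 0.000648). Neither gene overlapped between the groups. Of 25 genes of pyruvate entry and the citric acid cycle 10 (40%) were lower and 1 higher. The gene kdn, citrate synthase, had 129, 107 and 123 CPM in wts day 9 discs, against 175, 195 and 167 CPM in control discs (log2 -0.58 ± 0.09, adjusted p = 0.00163). This count was 4, 5 and 6 without wts day 9 replicate 2, wts day 9 replicate 3 or control replicate 1. The higher member lost its call with the length offset, with scaling by library size alone, without any wts day 9 or control replicate or without wts day 5 replicate 1.

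**Figure D3:**
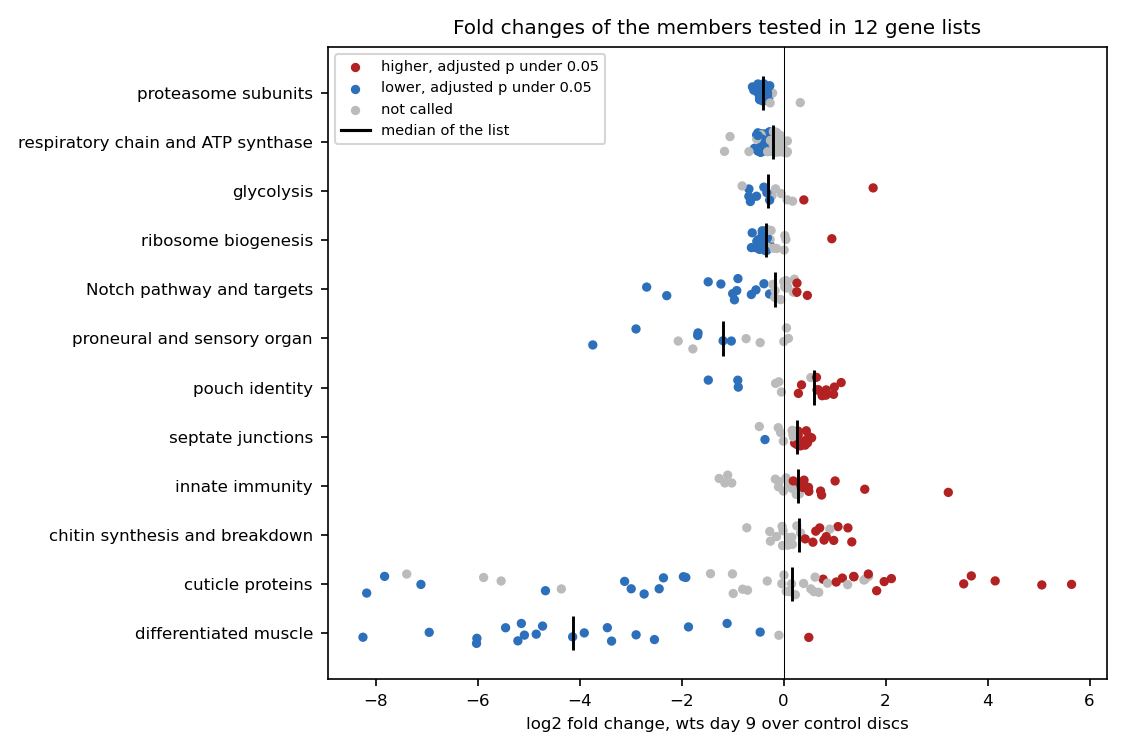
Log2 fold change of wts day 9 over control discs (horizontal axis) for each tested member of 12 gene lists (rows), coloured by its call, with a black bar at the list's median. Medians lie between -4.14 for muscle and 0.59 for pouch genes. Proteasome and respiratory genes are packed close to 0, and muscle and cuticle genes spread over several.

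Some genes of nutrient uptake, storage and recycling were higher. Among 18 tested genes of sugar storage and nutrient transport 6 (33.3%) were higher and 1 lower, a lower call that ended without any wts day 9 replicate or without control replicate 2. The gene path, an amino acid transporter that promotes growth, had 312, 311 and 375 CPM in wts day 9 discs, against 145, 138 and 165 CPM in control discs (log2 1.16 ± 0.13, adjusted p = 0.000265). The level of path in wts day 5 discs was 128, 149 and 106 CPM, and day 9 was above day 5 (log2 1.38, adjusted p = 0.00104). GlyS, glycogen synthase, had 261, 257 and 247 CPM in wts day 9 discs, against 186, 171 and 179.6 CPM in control discs (log2 0.51 ± 0.06, adjusted p = 0.000252). Of 18 tested lipid synthesis and storage genes 7 (38.9%) were higher and 1 lower. Without control replicate 3 the lower count was 4, and without any other replicate 0. It was 2 with DESeq2 or scaling by library size alone. The gene mdy, which makes triglyceride, had 77.3, 86.9 and 80.05 CPM in wts day 9 discs, against 45.3, 48.7 and 48.1 CPM in control discs (log2 0.78 ± 0.10, adjusted p = 0.000525), and Desat1, which makes unsaturated fatty acids, had 503, 620.2 and 568 CPM in wts day 9 discs, against 413, 413 and 329 CPM in control discs (log2 0.55 ± 0.11, adjusted p = 0.00491). For path, GlyS, mdy and Desat1 every wts day 9 replicate was above every control replicate.

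Of 24 insulin and TOR pathway genes 6 (25%) were higher and 1 lower, with a median of 0.07, and 2 were lower with scaling by library size alone. The 2 members with the largest called differences act when TOR activity is low. CG18619, whose product REPTOR-BP partners the transcription factor REPTOR, had 35.8, 48.1 and 42 CPM in wts day 9 discs, against 17.5, 18.3 and 17.6 CPM in control discs (log2 1.24 ± 0.17, adjusted p = 0.000777). CG13624, which encodes REPTOR, had 117, 103 and 89.1 CPM in wts day 9 discs, against 56.4, 55.6 and 45.1 CPM in control discs (log2 0.97 ± 0.14, adjusted p = 0.00102). The gene foxo, active when insulin signalling is low, had 71.2, 72.4 and 74 CPM in wts day 9 discs, against 63.2, 54.6 and 51.6 CPM in control discs (log2 0.36 ± 0.08, adjusted p = 0.00883). These 3 genes did not overlap between groups. Tor (log2 -0.02), S6k (0.03) and Akt1 (-0.09), the kinases of the pathway, were not called, and neither was Thor (0.77), the translation inhibitor 4E-BP. Lysosome and V-ATPase genes had 8 of 26 tested (30.8%) higher and 0 lower, or 1 lower without control replicate 3 or any wts day 5 replicate. Lamp1, a lysosomal membrane protein, had 337, 369.6 and 347 CPM in wts day 9 discs, against 258, 233 and 270.1 CPM in control discs (log2 0.47 ± 0.07, adjusted p = 0.0018). The higher count was 5 without wts day 9 replicate 1 or control replicate 2, and 4, with 1 lower, with scaling by library size alone. Of 23 tested autophagy genes 8 (34.8%) were higher and 0 lower, between 0.22 and 0.60 on the log2 scale. That count was 5 without wts day 9 replicate 2 or control replicate 3. Atg9, a membrane protein of early autophagosomes, had 42.8, 39.96 and 41.4 CPM in wts day 9 discs, against 34.8, 32.3 and 31 CPM in control discs (log2 0.34 ± 0.08, adjusted p = 0.0125).

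Cell cycle genes were called at shares near or below those of all genes. Of 39 tested DNA replication genes 3 (7.69%) were higher and 6 (15.4%) lower, and the lower count was 1 without wts day 9 replicate 2 and 3 without control replicate 1. CycE, the cyclin that starts S phase, had 155, 134 and 142 CPM in wts day 9 discs, against 92.7, 94.6 and 97.5 CPM in control discs (log2 0.60 ± 0.07, adjusted p = 0.000242). Of 50 mitosis genes 3 (6%) were higher and 5 (10%) lower, with 3 lower without wts day 9 replicate 2 or control replicate 1 and 9 lower with scaling by library size alone. Cdk1, the mitotic kinase, had 119.9, 114 and 113 CPM in wts day 9 discs, against 155, 144 and 161 CPM in control discs (log2 -0.40 ± 0.07, adjusted p = 0.00301). The gene stg differed more (log2 2.26 ± 0.51, adjusted p = 0.00952), with the replicate values given above.

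Cell death genes moved in both directions. Of 16 tested, 4 (25%) were higher and 3 (18.8%) lower. Diap2, an inhibitor of apoptosis, had 82.6, 88.7 and 87 CPM in wts day 9 discs, against 55.6, 57.1 and 53.2 CPM in control discs (log2 0.64 ± 0.08, adjusted p = 0.000467). Of the genes that antagonise such inhibitors, hid had 143, 169 and 162 CPM in wts day 9 discs, against 85.5, 80.02 and 122 CPM in control discs (log2 0.72 ± 0.15, adjusted p = 0.00547), and rpr had 8.8, 11.1 and 9.97 CPM in wts day 9 discs, against 17.2, 31.5 and 20.1 CPM in control discs (log2 -1.20 ± 0.23, adjusted p = 0.00439). The pair thus differed in direction, with no overlap between groups for either. The caspase genes Dronc (-0.11) and Drice (-0.18) were not called. Damm, another caspase gene of the list, was called lower. It had 6 counts over all wts day 9 replicates together, against 65 in control discs. The ratio was 10.2 for control over wts day 9 discs (counting interval 4.44 to 28.8). CG10176, which encodes Grindelwald, a receptor for the TNF ligand Eiger, had 141, 154 and 146 CPM in wts day 9 discs, against 97.1, 110.2 and 111 CPM in control discs (log2 0.47 ± 0.09, adjusted p = 0.00476), while egr itself was not called (-0.33).

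Many genes of the epithelial barrier were higher, and fewer of cell polarity and adherens junctions. Septate junctions seal insect epithelia below the adherens junction. Of 24 tested members 15 (62.5%) were higher and 1 lower, with a median of 0.25, and the higher count was 9 without control replicate 1. Cont, contactin, had 1210.4, 1275 and 1213 CPM in wts day 9 discs, against 814, 882 and 830.1 CPM in control discs (log2 0.55 ± 0.06, adjusted p = 0.000294). The gene sinu, a claudin, had 313, 317 and 313 CPM in wts day 9 discs, against 212, 223 and 232 CPM in control discs (log2 0.50 ± 0.07, adjusted p = 0.00134). Both genes were separate between the groups, with differences of less than 1.5-fold. Fas3, an adhesion protein, was the lower member (-0.36), and 2 were lower with the length offset. Among 19 polarity and adherens junction genes 6 (31.6%) were higher and 0 lower. These genes were long, with a median of 6433 exonic bases, and 27.8% of all genes in the longest decile were higher. The median of the list was 0.13, and 0.0055 with the length offset. The gene crb, which sets the apical membrane, had 660.2, 664 and 661 CPM in wts day 9 discs, against 451, 484 and 491 CPM in control discs (log2 0.48 ± 0.09, adjusted p = 0.00341), and its partner sdt had 272, 315 and 292 CPM in wts day 9 discs, against 209, 222 and 172 CPM in control discs (log2 0.54 ± 0.10, adjusted p = 0.00317). The gene shg, E-cadherin (0.12), and arm, beta-catenin (0.18), were not called.

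Integrins and their laminin ligands were higher in part, and collagen IV was not called. Of 21 tested basement membrane and integrin genes 9 (42.9%) were higher and 1 lower, with a median of 0.21. These genes were long, with a median of 5204 exonic bases, and the list's median was 0.12 with the length offset. The gene mew, the laminin-binding alpha integrin, had 316, 326 and 313 CPM in wts day 9 discs, against 244, 244 and 247 CPM in control discs (log2 0.38 ± 0.05, adjusted p = 0.000948), and LanA, laminin alpha, had 1416, 1338 and 1197 CPM in wts day 9 discs, against 927, 988 and 963 CPM in control discs (log2 0.46 ± 0.08, adjusted p = 0.00354). Tsp, thrombospondin, had 209, 169 and 184 CPM in wts day 9 discs, against 129, 102 and 137 CPM in control discs (log2 0.61 ± 0.12, adjusted p = 0.00577). The level of Tsp in wts day 5 discs was 103, 82.3 and 86.5 CPM, below day 9 (day 9 over day 5 log2 1.05, adjusted p = 0.00254). The collagen IV genes Cg25C (-0.20) and vkg (-0.11) and the perlecan gene trol (-0.02) were not called. Of 16 tested matrix remodelling genes 7 (43.8%) were higher and 0 lower. Timp, the inhibitor of matrix metalloproteases, had 11.7, 13 and 12.6 CPM in wts day 9 discs, against 7.03, 6.66 and 7.41 CPM in control discs (log2 0.82 ± 0.13, adjusted p = 0.0019). Pvf1 and Pvf3 are ligands of the PDGF- and VEGF-receptor relative Pvr. Pvf1 had 13, 8.07 and 10.5 CPM in wts day 9 discs, against 4.68, 4.18 and 5.54 CPM in control discs (log2 1.13 ± 0.19, adjusted p = 0.0026). Pvf3 had 19.1, 14.4 and 18.2 CPM in wts day 9 discs, against 10.2, 5.15 and 7.52 CPM in control discs (log2 1.18 ± 0.22, adjusted p = 0.00374). Both ligands were separate between groups at low levels. Without control replicate 2, or with DESeq2, 1 matrix gene was lower.

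Guidance and recognition molecules, known from axon pathfinding and also used by epithelia, had 9 of 28 tested members (32.1%) higher and 3 (10.7%) lower. Without control replicate 1, 5 were higher. The lower count was 1 without control replicate 1 or 3, any wts day 9 replicate or wts day 5 replicate 2. NetB, a netrin, had 130.4, 145 and 137 CPM in wts day 9 discs, against 65.2, 66.9 and 77.6 CPM in control discs (log2 0.98 ± 0.08, adjusted p = 3.83e-05), and its receptor unc-5 had 161, 176 and 163 CPM in wts day 9 discs, against 123, 125 and 119.9 CPM in control discs (log2 0.44 ± 0.05, adjusted p = 0.000381). Ten-a, a teneurin, had 733, 778 and 709 CPM in wts day 9 discs, against 487, 483 and 475 CPM in control discs (log2 0.62 ± 0.09, adjusted p = 0.00106). Tetraspanins, small membrane proteins that organise receptors, had 6 of 20 tested (30%) higher and 1 lower, and up to 3 were lower with a single replicate left out, control replicate 1. Tsp42Ef had 114, 129 and 122 CPM in wts day 9 discs, against 58, 64.8 and 53.5 CPM in control discs (log2 1.05 ± 0.08, adjusted p = 3.08e-05), and wts day 5 discs were close to day 9 at 117, 114 and 126 CPM.

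Many chitin enzymes were higher, while cuticle protein genes moved both ways. Chitin is the polysaccharide of the apical extracellular matrix and the cuticle. Of 36 listed genes 24 were tested, 10 (41.7%) were higher and 0 lower, with a median of 0.30. The gene obst-B, a chitin-binding protein, had 223, 177 and 164 CPM in wts day 9 discs, against 76.4, 81.9 and 64.6 CPM in control discs (log2 1.34 ± 0.14, adjusted p = 0.000185). Cht5, a moulting chitinase, had 143, 167 and 159.8 CPM in wts day 9 discs, against 80.9, 46.9 and 68.2 CPM in control discs (log2 1.26 ± 0.19, adjusted p = 0.00152). The level of Cht5 in wts day 5 discs was 49, 32.4 and 37 CPM, below day 9 (day 9 over day 5 log2 1.99, adjusted p = 0.00132). The chitinases Cht6 (1.07) and Cht2 (0.63) and the deacetylases serp (0.79) and verm (0.84) were also higher. The genes serp, verm and Gasp are tracheal markers too, and the summed level of 11 tracheal markers was 4883 to 5360 CPM in wts day 9 discs, against 2987 to 3472 CPM in control discs. Of these markers 10 were tested, 4 were higher and 1 lower, with 0 lower without wts day 9 replicate 2 and 2 lower without wts day 5 replicate 1 or control replicate 2, with DESeq2 or with scaling by library size alone. The largest parts of the sum were uif and verm. The gene trh, the tracheal selector, stood at 109.6, 104 and 100.1 CPM in wts day 9 discs, against 107, 98.6 and 93.4 CPM in control discs (log2 0.07, not called). The tracheal markers btl and dys stood below the controls. For btl the values were 10.5, 8.44 and 10.1 CPM in wts day 9 discs, against 13.7, 14 and 14.2 CPM in control discs. For dys they were 14, 14.9 and 14.6 CPM, against 22.4, 16.1 and 23.7 CPM. The part of trachea in the chitin genes was not tested.

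Of 149 cuticle protein genes 51 passed the filter, 14 (27.5%) higher and 11 (21.6%) lower, all but 1 of them by at least 2-fold. A member could pass the filter through either group. Cpr51A had 79, 89.4 and 65.6 CPM in wts day 9 discs, against 23.9, 19.4 and 16.2 CPM in control discs (log2 1.97 ± 0.17, adjusted p = 6.45e-05). Osi15, of the Osiris family, had 11.3, 6.47 and 6.28 CPM in wts day 9 discs, against 0.515, 0.489 and 0.32 CPM in control discs (log2 4.15 ± 0.31, adjusted p = 2.76e-05). On the other side the larval cuticle gene Lcp3 had 7 counts in all wts day 9 replicates, against 2406 in control discs, a ratio of 324 for control over wts day 9 discs (95% counting interval 157 to 805). Lcp3 was uneven within the controls, at 16.7, 89.2 and 2.19 CPM. By name, 9 of 30 tested Cpr genes were higher and 4 lower, and 1 of 8 Lcp genes was higher and 3 lower. The lower cuticle count was 6 with limma-voom.

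**Figure D4:**
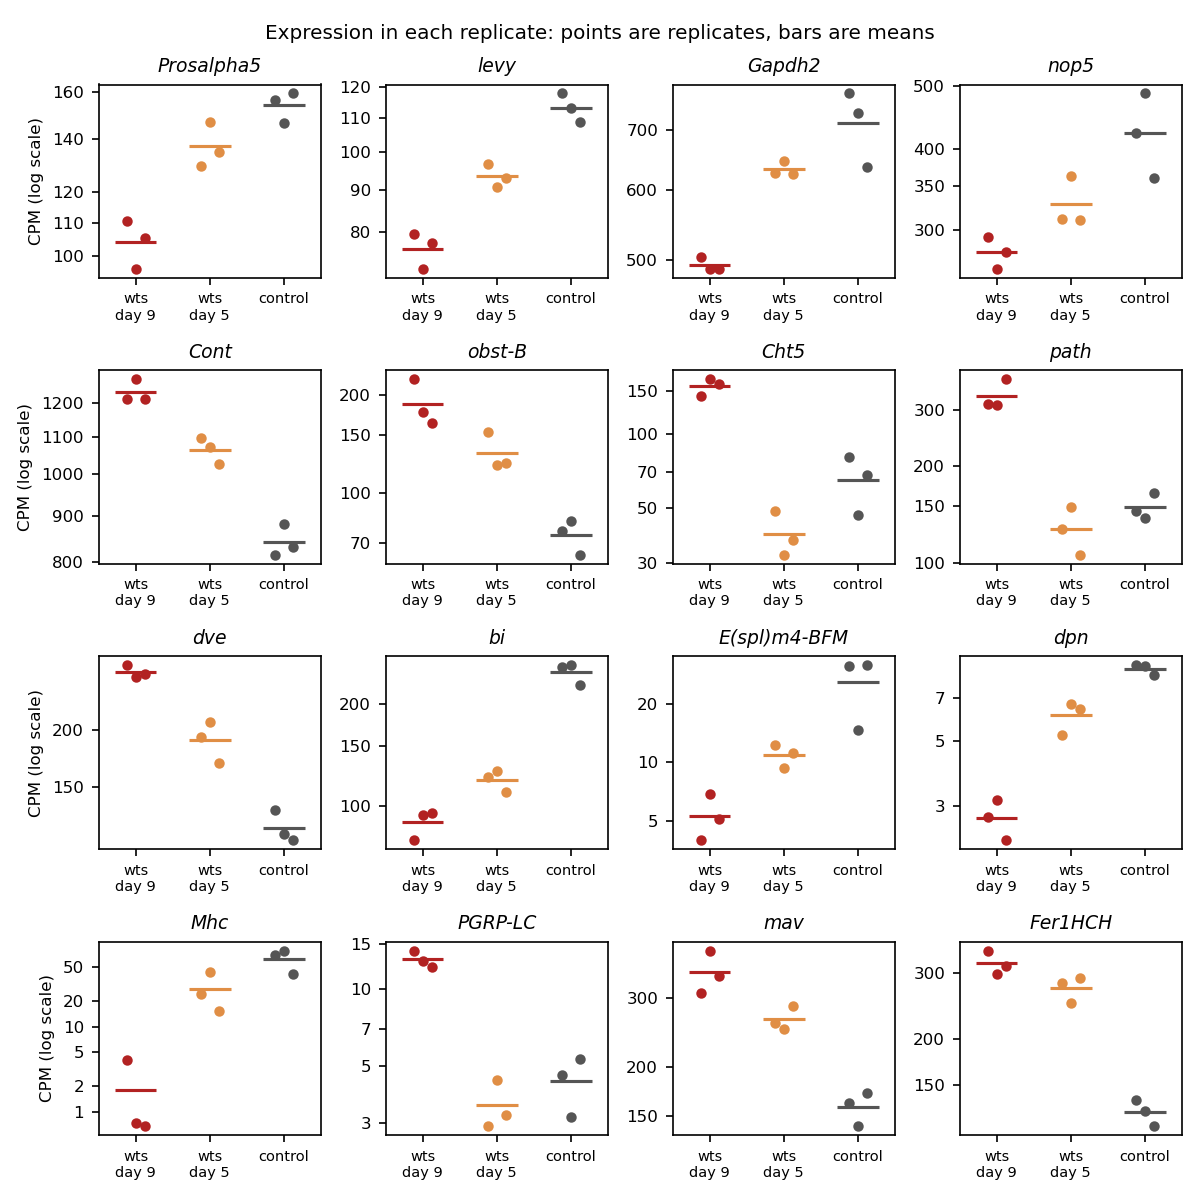
CPM (log scale) of 16 genes in each replicate of wts day 9, wts day 5 and control discs, with a bar at the mean of each group. In every panel the 3 wts day 9 points lie apart from the 3 control points. Cht5, path and PGRP-LC stand higher on day 9 than in wts day 5 discs, whereas Fer1HCH is close in both.

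Genes of the wing pouch moved both ways. Of 18 genes that pattern or define the wing pouch 11 (61.1%) were higher and 3 (16.7%) lower, with a median of 0.59, and no left-out replicate moved either count by more than 1.5 times. The gene dve, a homeobox gene of the inner pouch, had 277, 261 and 265 CPM in wts day 9 discs, against 133, 119 and 115 CPM in control discs (log2 1.13 ± 0.09, adjusted p = 3.08e-05). The gene knrl, which places the second wing vein with its neighbour kni, had 50.7, 50.5 and 50.9 CPM in wts day 9 discs, against 30.8, 25.4 and 28.9 CPM in control discs (log2 0.84 ± 0.09, adjusted p = 0.000239). The gene rn, a zinc finger gene of the pouch, had 425, 467 and 426 CPM in wts day 9 discs, against 275, 303 and 259 CPM in control discs (log2 0.66 ± 0.09, adjusted p = 0.000875). The lower genes were bi (optomotor-blind), vg and pdm2. The gene bi, a target of Dpp signalling, had 78.9, 94.1 and 95 CPM in wts day 9 discs, against 257, 261 and 227 CPM in control discs (log2 -1.48 ± 0.09, adjusted p = 1.07e-05). The gene vg, the wing selector, had 144, 130.1 and 123 CPM in wts day 9 discs, against 254, 265 and 216 CPM in control discs (log2 -0.89 ± 0.09, adjusted p = 0.000118). The gene sd, which encodes the DNA-binding partner of both Vg and Yorkie, was not called (-0.16), nor was ap (-0.04), the dorsal selector. Genes of hinge and notum had 4 of 22 (18.2%) higher and 3 (13.6%) lower, shares near those of all genes in this fit. Their lower count was 0 and 1 without wts day 9 replicates 2 and 3, 1 without control replicate 1 and 5 without control replicate 2. It was 6 with the length offset or with scaling by library size alone. Their higher count was 2 without wts day 9 replicate 3 or control replicate 2.

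Some timing genes were higher in the old disc, early and late factors among them. Of 9 tested temporal identity genes 5 (55.6%) were higher and 1 lower. The gene chinmo, which marks early stages and is also a JAK/STAT target, had 347, 376 and 288 CPM in wts day 9 discs, against 112, 126 and 76.1 CPM in control discs (log2 1.69 ± 0.18, adjusted p = 0.000231). Kr-h1, the effector of juvenile hormone, had 71.8, 82.5 and 78.8 CPM in wts day 9 discs, against 58.8, 58.7 and 54.1 CPM in control discs (log2 0.44 ± 0.07, adjusted p = 0.00148). The gene chinmo stood as high in wts day 5 discs, at 355, 330.2 and 430.5 CPM. Eip93F, the adult specifier E93 that follows the larval stage, had 1.55, 2.17 and 1.73 CPM in wts day 9 discs, against 0.375, 0.178 and 0.533 CPM in control discs (log2 2.33 ± 0.46, adjusted p = 0.005), a low level that was above wts day 5 discs too (log2 2.76, adjusted p = 0.0114). The gene mamo was the lower one (-0.75), and without control replicate 2 there were 2. The ecdysone response list had 6 of 27 (22.2%) higher and 1 lower, and its lower count was 2 without wts day 9 replicate 1 and 6 without control replicate 2, the replicate low in Blimp-1. With scaling by library size alone it was 2. Hr46, the receptor Hr3, was uneven, with 3.79, 0.207 and 0.767 CPM in wts day 9 discs, against 37.3, 0.0889 and 18.6 CPM in control discs (log2 -3.56, adjusted p = 0.0725).

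Most E(spl) genes and some proneural genes were lower. Notch signalling switches on the E(spl) repressors, and 9 of 10 tested genes of that complex were lower, part of 12 of 28 Notch list members lower (42.9%) and 4 higher (14.3%). E(spl)m4-BFM had 3.95, 6.88 and 5.08 CPM in wts day 9 discs, against 31.5, 14.7 and 31.8 CPM in control discs (log2 -2.29 ± 0.30, adjusted p = 0.000711). E(spl)m3-HLH had 29, 31.8 and 29.7 CPM in wts day 9 discs, against 62.8, 51.7 and 56.4 CPM in control discs (log2 -0.92 ± 0.11, adjusted p = 0.000484). Notch itself (N, 0.08) and its nuclear partner Su(H) (-0.06) were not called, and fng, which tunes ligand binding, was higher with 374, 391 and 384 CPM in wts day 9 discs, against 309.8, 251 and 271 CPM in control discs (log2 0.47 ± 0.08, adjusted p = 0.00223). The list's lower count was 7 without wts day 9 replicate 1 and 6 without replicate 3. Of 13 tested proneural and sensory organ genes 6 (46.2%) were lower and 0 higher, with a median of -1.19. The gene ac (achaete), which makes cells competent for bristles, had 7.36, 7.87 and 7.57 CPM in wts day 9 discs, against 16.8, 15.2 and 19.9 CPM in control discs (log2 -1.19 ± 0.13, adjusted p = 0.000286). The gene sc (scute), the neighbour of ac, had 13.2, 11.2 and 12.1 CPM in wts day 9 discs, against 23.6, 17.3 and 33.5 CPM in control discs (log2 -1.02 ± 0.21, adjusted p = 0.00534). Both genes were separate between the groups. The gene dpn, a neural repressor, had 2.77, 3.16 and 2.3 CPM in wts day 9 discs, against 9.04, 8.93 and 8.37 CPM in control discs (log2 -1.68 ± 0.17, adjusted p = 0.000189). The gene sens (-0.73), the marker of the selected precursor cell, and neur (0.01) were not called.

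Several signalling lists had higher members. Of 22 tested EGFR and Ras genes 10 (45.5%) were higher and 2 (9.09%) lower. The receptor Egfr had 634, 655 and 673 CPM in wts day 9 discs, against 474, 416 and 497 CPM in control discs (log2 0.50 ± 0.08, adjusted p = 0.00245). Its ligand vn had 114, 111 and 111 CPM in wts day 9 discs, against 88.7, 90.9 and 80.5 CPM in control discs (log2 0.37 ± 0.06, adjusted p = 0.00187). The inhibitors aop (0.41) and sty (0.36) were higher, and pnt, the activating transcription factor, was lower with 49.1, 41.3 and 45.3 CPM in wts day 9 discs, against 69.2, 72.6 and 67.4 CPM in control discs (log2 -0.63 ± 0.08, adjusted p = 0.000527). With the length offset or scaling by library size alone 4 were lower. The second lower call, rho, ended without any wts day 9 replicate, wts day 5 replicate 3 or control replicate 1 or 3. The kinases phl (-0.07), Dsor1 (-0.12) and rl (0.17) were not called. In the JAK/STAT list 5 of 12 genes (41.7%) were higher and 0 lower. The cytokine os (unpaired) had 17.2, 20.2 and 21.7 CPM in wts day 9 discs, against 11.1, 11.1 and 11.4 CPM in control discs (log2 0.82 ± 0.10, adjusted p = 0.00055), and upd3 had 4.43, 4.5 and 4.12 CPM in wts day 9 discs, against 2.53, 2.27 and 2.03 CPM in control discs (log2 0.93 ± 0.19, adjusted p = 0.00519). Neither overlapped between wts day 9 and control discs. Wts day 5 discs had 23.9, 21.1 and 23.6 CPM of os and 5.85, 4.78 and 5.77 CPM of upd3. The transcription factor Stat92E (-0.16) and the feedback target Socs36E (-0.36) were not called, and 1 member was lower without control replicate 3, with DESeq2, with scaling by library size alone or with the length offset.

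Called genes of Wnt and Hedgehog signalling moved both ways. Of 24 tested Wnt pathway genes 5 (20.8%) were higher and 3 (12.5%) lower, with a median of 0.04. These shares were near those of all genes, 15.3% and 14.3%. The receptor fz2 had 1143, 1137 and 1117 CPM in wts day 9 discs, against 761, 737 and 728 CPM in control discs (log2 0.61 ± 0.06, adjusted p = 8.58e-05). The gene drl, a co-receptor, had 632, 673 and 701 CPM in wts day 9 discs, against 323, 279 and 288 CPM in control discs (log2 1.17 ± 0.08, adjusted p = 1.43e-05). In wts day 5 discs drl had 433, 422 and 395 CPM, below day 9 (day 9 over day 5 log2 0.68, adjusted p = 0.00197). The feedback inhibitor nkd had 227, 222 and 228 CPM in wts day 9 discs, against 334, 269.6 and 277 CPM in control discs (log2 -0.38 ± 0.08, adjusted p = 0.00677), and the ligand wg was not called (0.17). Of 16 tested Hedgehog pathway genes 5 (31.2%) were higher and 3 (18.8%) lower. The gene boi, a co-receptor for Hedgehog, had 386, 407 and 396 CPM in wts day 9 discs, against 279.8, 264 and 239.9 CPM in control discs (log2 0.60 ± 0.07, adjusted p = 0.000319). The receptor and target ptc had 149.7, 132 and 135 CPM in wts day 9 discs, against 227, 214 and 189 CPM in control discs (log2 -0.60 ± 0.09, adjusted p = 0.00118). Both were separate between groups, in opposite directions. The Hedgehog counts were not stable. The higher count was 3 without wts day 9 replicate 1 or with scaling by library size alone and 2 without control replicate 2, and the lower count was 1 without wts day 9 replicate 2 or 3 or control replicate 1.

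In the activin branch of TGF-beta signalling 4 of 7 tested genes (57.1%) were higher and 0 lower, in all 9 fits with a replicate left out. The ligand mav had 308, 396 and 341 CPM in wts day 9 discs, against 162, 141 and 171 CPM in control discs (log2 1.14 ± 0.11, adjusted p = 9.66e-05), and the ligand myo had 226, 229 and 208 CPM in wts day 9 discs, against 126, 123 and 143 CPM in control discs (log2 0.75 ± 0.09, adjusted p = 0.000358). The receptor babo had 315, 311 and 263 CPM in wts day 9 discs, against 216, 215 and 197 CPM in control discs (log2 0.50 ± 0.08, adjusted p = 0.00204), and the signal transducer Smox had 280.3, 357 and 327 CPM in wts day 9 discs, against 238, 225 and 245 CPM in control discs (log2 0.45 ± 0.09, adjusted p = 0.00486). No replicate of these 4 genes crossed into the other group. The gene daw, another ligand of the branch, was not called (log2 1.63, adjusted p = 0.0987).

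Part of the sensors and signal carriers of innate immunity were higher, while the antimicrobial peptides they induce stood near the limit of detection. Of 47 listed genes 27 were tested, and 13 (48.1%) were higher and 0 lower, with a median of 0.28. Without wts day 9 replicate 1 or control replicate 2, with DESeq2, limma-voom or scaling by library size alone, 1 was lower. PGRP-LC, the receptor of the Imd pathway, had 14.2, 12.9 and 12.3 CPM in wts day 9 discs, against 4.59, 3.15 and 5.33 CPM in control discs (log2 1.59 ± 0.22, adjusted p = 0.000934). The level of PGRP-LC in wts day 5 discs was 2.9, 4.42 and 3.22 CPM (day 9 over day 5 log2 1.91, adjusted p = 0.00245). PGRP-SA, a secreted sensor that feeds Toll signalling, had 29.7, 11.1 and 12.8 CPM in wts day 9 discs, against 1.03, 1.87 and 2.83 CPM in control discs (log2 3.23 ± 0.48, adjusted p = 0.00135). Toll itself (Tl) had 118, 145 and 141 CPM in wts day 9 discs, against 89.3, 74.1 and 77.5 CPM in control discs (log2 0.75 ± 0.09, adjusted p = 0.000407), and Rel, the Imd transcription factor, had 112, 119 and 119.7 CPM in wts day 9 discs, against 86.7, 91 and 71.4 CPM in control discs (log2 0.50 ± 0.08, adjusted p = 0.00231). All 3 wts day 9 replicates were above all control replicates for these 4 genes. For PGRP-SA this was a condition for naming it among the largest rises. Of 14 antimicrobial peptide genes 2 passed the filter, and the highest level of any of them was 0.621 CPM in wts day 9 and 1.16 CPM in control discs. Blood cells express several of these genes, and the summed level of 15 haemocyte markers was 229 to 394 CPM in wts day 9 discs and 209 to 334 CPM in control discs. Of those markers 14 were tested, 3 were higher and 0 lower. That count was 1 without wts day 9 replicate 1 or 2 or control replicate 1, and 8 without control replicate 3, and 5 with DESeq2 or limma-voom. Hml, a defining marker, had 42.2, 36 and 23.9 CPM in wts day 9 discs, against 7.31, 18 and 23.1 CPM in control discs, and eater had 7.73, 6.52 and 6.04 CPM in wts day 9 discs, against 0.562, 2.4 and 4.64 CPM in control discs. The part of blood cells in the immune genes was not tested.

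Among stress factors 9 of 20 tested transcription factors (45%) were higher and 0 lower, or 2 lower without control replicate 3. With DESeq2, scaling by library size alone or the length offset 3 were lower. The gene crc, the ATF4 homolog of the integrated stress response, had 1575, 1811 and 1697 CPM in wts day 9 discs, against 949, 1002 and 961 CPM in control discs (log2 0.80 ± 0.07, adjusted p = 7.04e-05). The gene cnc, the Nrf2 homolog, had 223, 224 and 227 CPM in wts day 9 discs, against 178, 189 and 175 CPM in control discs (log2 0.31 ± 0.06, adjusted p = 0.00354). Yet of 37 tested oxidative stress and glutathione genes 12 (32.4%) were lower and 3 (8.11%) higher. Without wts day 9 replicate 2, 7 were lower. In the GstE cluster 7 of 10 tested genes were lower, such as GstE8 with 1.92, 2.23 and 2.11 CPM in wts day 9 discs, against 6.84, 8.04 and 6.08 CPM in control discs (log2 -1.74 ± 0.24, adjusted p = 0.000933). These cluster members are similar in sequence, and how the counting treated shared reads was not given, so values of single genes are uncertain. GstT4, of the theta class, was higher with 51.8, 61.1 and 55.7 CPM in wts day 9 discs, against 15, 21.9 and 19.8 CPM in control discs (log2 1.57 ± 0.18, adjusted p = 0.000358). Heat shock genes differed by replicate. Of 21 tested, 6 (28.6%) were lower and 1 higher, a higher call that ended without any wts day 9 replicate, wts day 5 replicate 1 or control replicate 3. The lower count was 3 without wts day 9 replicate 2 or 3 or control replicate 1, and 19 without control replicate 3, the replicate lowest in Hsp68. Hop, a co-chaperone, kept its call with each replicate left out, with 282, 280.2 and 317 CPM in wts day 9 discs, against 462, 406 and 392 CPM in control discs (log2 -0.52 ± 0.09, adjusted p = 0.00208).

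A few genes known from the germline were higher. Of 30 listed, 19 were tested, with 4 (21.1%) higher and 2 (10.5%) lower, beside 15.3% and 14.3% of all genes. The median of the list was -0.07. AGO3, a piRNA-binding protein, had 15.1, 13.4 and 12.4 CPM in wts day 9 discs, against 5.2, 7.02 and 7.68 CPM in control discs (log2 1.04 ± 0.17, adjusted p = 0.00227). The gene tud, of the germ plasm, had 771, 996 and 877 CPM in wts day 9 discs, against 567, 548 and 584 CPM in control discs (log2 0.64 ± 0.09, adjusted p = 0.000948). The gene vis, a homeobox gene active in the testis, had 10.3, 9.78 and 10.1 CPM in wts day 9 discs, against 3.89, 3.78 and 2.77 CPM in control discs (log2 1.53 ± 0.15, adjusted p = 0.000146). No replicate overlapped for these 3 genes. Wts day 5 discs had 11.2, 11.7 and 14.9 CPM of AGO3 and 9.84, 9.55 and 10.2 CPM of vis, and neither was called between the mutant ages. The germline markers vas (0.39) and piwi (0.02) were not called. The lower count was 0 without wts day 9 replicate 2 or control replicate 1 or 2, and 1 without wts day 9 replicate 1 or 3.

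Single families added further differences. Ferritin stores iron, and its heavy chain Fer1HCH had 345, 298 and 314 CPM in wts day 9 discs, against 137, 128 and 116 CPM in control discs (log2 1.33 ± 0.09, adjusted p = 1.5e-05). The light chain Fer2LCH had 367, 287 and 295 CPM in wts day 9 discs, against 245, 251 and 217 CPM in control discs (log2 0.41 ± 0.11, adjusted p = 0.0181). Neither chain overlapped between the groups. Of 14 tested serpins, which block serine proteases, 5 (35.7%) were higher and 0 lower, or 1 lower without control replicate 2. Spn77Ba, an inhibitor of melanisation, had 285, 244 and 244 CPM in wts day 9 discs, against 117, 129.8 and 125 CPM in control discs (log2 1.05 ± 0.08, adjusted p = 2.97e-05). Of 43 tested cytochrome P450 and glucuronosyl transferase genes 11 (25.6%) were higher and 5 (11.6%) lower, with 7 higher without wts day 9 replicate 3. Cyp6a17 had 41.8, 59.7 and 46 CPM in wts day 9 discs, against 14.5, 17.2 and 12.4 CPM in control discs (log2 1.74 ± 0.16, adjusted p = 9.6e-05). Of 30 degenerin channel genes 6 passed the filter, and of these 3 (50%) were higher and 1 (16.7%) lower. Among them ppk had 9.87, 13.3 and 12.8 CPM in wts day 9 discs, against 1.78, 1.51 and 1.92 CPM in control discs (log2 2.79 ± 0.18, adjusted p = 1.14e-05), and rpk had 22.9, 17.9 and 16.8 CPM in wts day 9 discs, against 8.1, 8.58 and 6.34 CPM in control discs (log2 1.32 ± 0.19, adjusted p = 0.00122). Both were separate between the groups. A degenerin gene could pass the filter through either group. The lower degenerin call ended without wts day 9 replicate 2 or 3 or control replicate 1 or 2.

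Sarcomere genes were lower by wide margins. Of 21 tested genes of differentiated muscle 19 (90.5%) were lower and 1, Zasp52, higher, with a median of -4.14. Of all genes 14.3% were lower. With a replicate left out 17 to 19 muscle genes were lower. Some members passed the filter only through the other groups, so that only a lower call was open to them. One such gene was Mlc1, with 6 counts over all wts day 9 replicates, against 2162 in control discs. Mhc, myosin heavy chain, had 4.05, 0.725 and 0.671 CPM in wts day 9 discs, against 69.6, 78.8 and 41.4 CPM in control discs (log2 -5.14 ± 0.64, adjusted p = 0.000499). The gene wupA, troponin I, had 1.28, 0.362 and 0.431 CPM in wts day 9 discs, against 14.6, 64.2 and 11.4 CPM in control discs (log2 -5.45 ± 0.82, adjusted p = 0.00135). Wts day 5 discs had 23.9, 43.6 and 15.1 CPM of Mhc, and day 9 was below them (log2 -3.93, adjusted p = 0.00841). Markers of the disc myoblasts, the precursors of flight muscle, did not follow. Their sum was 723 to 751 CPM in wts day 9 discs and 722 to 752 CPM in control discs, and of 11 tested 2 were higher and 1 lower. Without wts day 9 replicate 1, 3 were lower, and without control replicate 2 or with scaling by library size alone, 2 were. With the length offset 1 was higher and 2 were lower. The gene twi, their defining transcription factor, had 24.7, 21.4 and 24.9 CPM in wts day 9 discs, against 22.2, 26.4 and 24 CPM in control discs (log2 -0.03, not called). Whether larval muscle adhered to dissected discs was not given in the sources used here.

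Other tissues varied by replicate. Of 10 fat body markers 0 were higher and 1 lower, and their sum was 139 to 402 CPM in wts day 9 and 84.6 to 299 CPM in control discs. Their lower count was 0 to 2 with a replicate left out, 2 with DESeq2 or scaling by library size alone, and without control replicate 3, 1 was higher. Of 14 markers of neurons and glia 9 were tested, 4 were higher and 0 lower, with sums of 419 to 516 CPM in wts day 9 and 284 to 355 CPM in control discs. Up to 2 were lower with a replicate left out, without wts day 5 replicate 1 or control replicate 2, and 1 with the length offset. The defining glial marker repo was at most 0.107 CPM in wts day 9 and 1.39 CPM in control discs. Most of the neuron and glia sum came from Gli, which is also in the septate junction list. Gli had 313, 286 and 305 CPM in wts day 9 discs, against 202, 212 and 261 CPM in control discs. The neuronal marker para had 0.533, 0.362 and 0.479 CPM in wts day 9 discs, against 1.08, 1.24 and 1.07 CPM in control discs. Of 23 salivary gland genes 3 passed the filter and 2 were lower. These 2, Sgs3 and Sgs7, passed it only through the control discs, so that only a lower call was open to them. When wts day 9 replicate 1, any wts day 5 replicate or control replicate 1 was left out 7 were lower, and 6 when wts day 9 replicate 3 was.

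**Figure D5:**
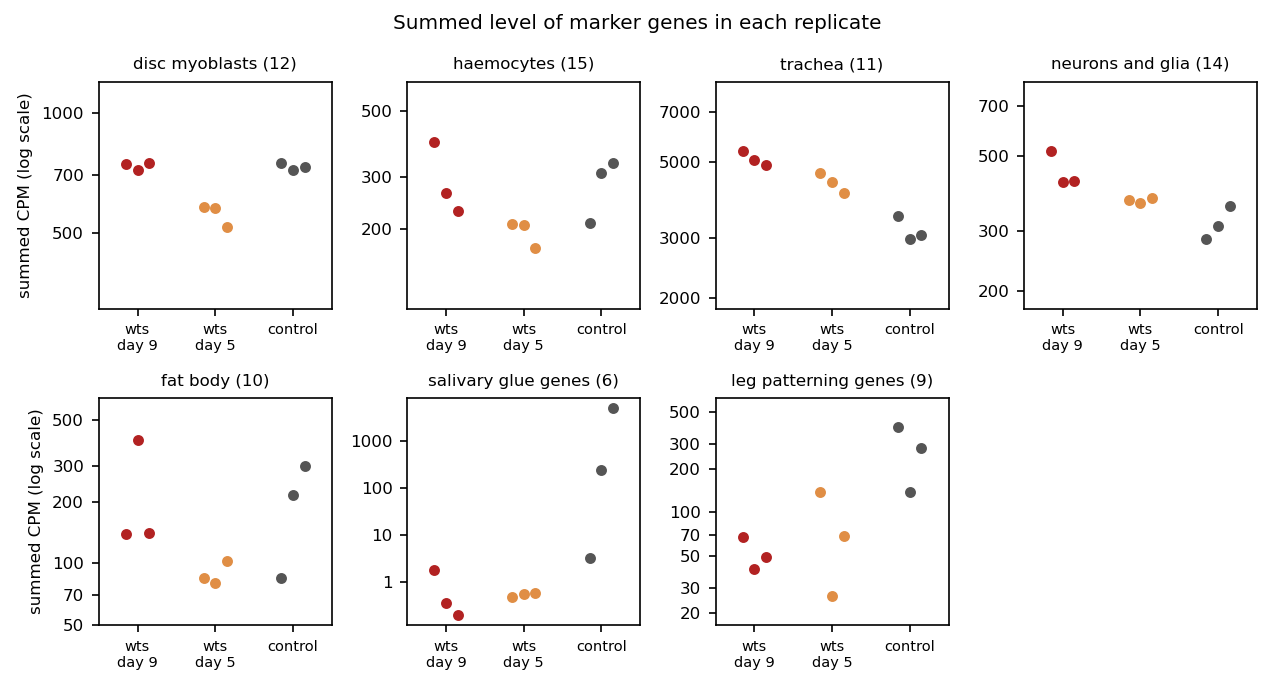
Summed CPM (log scale) of marker genes of other tissues in each replicate of wts day 9, wts day 5 and control discs, with the number of genes in brackets. Myoblast sums are level between wts day 9 and control discs, tracheal sums are higher in wts day 9 discs, and glue gene sums span 3.19 to 5286 CPM within the controls.

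A group of leg and antennal patterning genes was also lower in wts day 9 discs, chosen after its values were seen. All 9 genes (dac, disco, disco-r, Sp1, btd, fd96Ca, fd96Cb, TfAP-2 and Lim1) were tested and 8 were lower. Their sum was 67.7, 40.1 and 49.0 CPM in wts day 9 discs, 139, 26.3 and 68.4 CPM in wts day 5 discs and 391, 138 and 283 CPM in control discs. The gene dac, which patterns the middle leg segments, had 26.2, 20.4 and 24.6 CPM in wts day 9 discs, against 114, 55.3 and 93.3 CPM in control discs (log2 -1.88 ± 0.34, adjusted p = 0.00343). The gene disco-r had 6.4, 3.62 and 4.17 CPM in wts day 9 discs, against 52.3, 18.3 and 37 CPM in control discs (log2 -2.92 ± 0.64, adjusted p = 0.00788). The sum spread over more than 2-fold among the controls, and 6 of the 8 calls ended when single replicates were left out. Ubx, the selector of the haltere and hind leg segment, had 19.1, 13.4 and 8.82 CPM in wts day 9 discs, against 70.8, 18.3 and 54.2 CPM in control discs (log2 -1.80, adjusted p = 0.0209), a call that ended without wts day 9 replicate 2 or 3 or control replicate 1. Whether other discs were part of the dissected tissue was not tested.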

How the data were processed

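The RNA of whole wing discs was sequenced, and the authors deposited raw read counts per gene for each library. Counting used HTSeq, per the submitters' processing notes; no source used here gives the aligner, genome build, strand setting or treatment of shared reads. Groups came from the labels. Libraries a and b of a number were summed. Genes were matched by symbol (12765) or synonym (4387) to a RefSeq table, and 221 were unmatched. All 3 groups were fitted with edgeR 4.0.16 in R 4.3.3 (filterByExpr, TMM scaling, quasi-likelihood F-test), with Benjamini-Hochberg adjustment over 8585 genes and a call at adjusted p below 0.05. CPM values were scaled with TMM, and a standard error is the log2 fold change over the root of F. The script was tested on simulated data. Alternatives were DESeq2 1.42.0, limma 3.58.1 voom, other scalings and filters, each library alone, a replicate block, 2 groups alone and each replicate left out. Replicate numbers were not stated to pair the samples.

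The 65 gene lists and the rule for naming genes were chosen with earlier results of these data known, and their counts are descriptions. The rule named wts, the 12 largest called rises and falls at 10 CPM or more without overlap, up to 4 called members of each list with the smallest p and 2 with the largest fold change, and any measured member of a list of 30 genes or fewer. Others were chosen after their values were seen. Of gene positions the chromosome alone was used, from the RefSeq table, and sequences were not used here. Counting intervals cover counting error only, at 95% (exact). At depths of 14201662 to 22263073 counts a replicate, genes near 1 CPM carry few counts and the widest errors.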

Additional observations from a re-analysis of the deposited data

How the results depend on the processing

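As reported, 1312 genes were higher and 1231 lower in wts day 9 discs than in control discs, 296 and 334 of them by at least 2-fold. RLE size factors, DESeq2, limma-voom, no filter, each library alone, the 2 groups alone and an exon length trend as an offset, chosen after seeing the data, moved none of these 4 counts by more than 1.5 times. Scaling by library size alone gave 1069 higher and 1580 lower. A filter of 5 CPM in 3 replicates left 196 genes at least 2-fold higher and 128 lower, because fewer genes were tested. With a replicate left out, 958 to 1364 genes were higher and 590 to 1345 lower, 248 to 349 at least 2-fold higher and 222 to 490 at least 2-fold lower. The lowest 4 values came without wts day 9 replicate 2 or, for 248, also without control replicate 1, and the cause was not tested. With a replicate block 1179 genes were higher and 1081 lower. Replicate numbers were not stated to pair the samples. Deviations from the group means of wts day 9 and control replicates of the same number correlated at -0.04, 0.15 and -0.02. Of the wts day 9 replicates 1 of 3 correlated best with its own number. With 3 replicates a group these values cannot exclude a pairing. Of 421 called genes that the naming rule covers, 248 were called under every setting and 276 in all 9 fits without a replicate, and of all 2543 calls 1349 were kept in those 9 fits. The posterior selector en was at -0.03 on the log2 scale and not called; without control replicate 3 its value was 0.36 and without control replicate 2 it was -0.23. Of the counts of higher and lower members of the 65 lists, scaling by library size alone moved 24 by more than 1.5 times, the length offset 18, DESeq2 11, limma-voom 10 and the replicate block 12. Genes under about 1 CPM are limited by depth.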

Other observations

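Genes of chromosome 4, the small and largely heterochromatic autosome, were more often higher than genes of other arms. Of 79 tested, 26 (32.9%) were higher and 7 (8.86%) lower in wts day 9 than in control discs, with a median log2 fold change of 0.23, whereas the medians of X, 2L, 2R, 3L and 3R lay between -0.04 and 0.00. Wts day 5 discs differed from control discs by a median of 0.20 for these genes. The higher count was 15 without control replicate 1 and 16 without wts day 9 replicate 2. These genes were long, with a median of 3720 exonic bases, and the median was 0.14 with the length offset. The part of length and of genotype was not tested.

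For genes without a protein product the shares stand beside 15.3% higher and 14.3% lower over all genes. Of 185 tested lncRNA genes 33 (17.8%) were higher and 13 (7.03%) lower, and of 73 antisense RNA genes 14 (19.2%) were higher and 1 (1.37%) lower. These differences in share were not tested. Whether the counting used strand is not given, so reads of an antisense gene cannot be told apart from those of its partner. Of 43 snoRNA genes 0 were higher and 1 lower by edgeR's quasi-likelihood test.

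Among the largest differences not described above, natalisin, a neuropeptide gene, had 21.2, 143 and 142 CPM in wts day 9 discs, against 10.9, 12.6 and 9.28 CPM in control discs. The calcium channel gene cac, one of the neuron and glia markers, had 69.5, 21.2 and 18 CPM in wts day 9 discs, against 1.87, 5.95 and 4.53 CPM in control discs. Nplp4, another neuropeptide-like gene, had 5.01, 2.59 and 2.25 CPM in wts day 9 discs, against 121, 187 and 71 CPM in control discs. The rule that named natalisin, cac and Nplp4 took only genes without overlap between the groups, so their separation adds nothing to these values. Single replicates of wts day 9 discs stood apart for natalisin and cac.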
